A study of Danio rerio
Oryzias latipes and Oryzias latipes and Danio rerio with 7 samples.

Results

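The myeloid cell genes described here are 9 genes named by symbol: the regulators spi1b, cebpa and irf8, the receptor csf1ra, the effector genes lyz, mpeg1.1 and mfap4, and the cytoskeletal genes coro1a and lcp1. They were taken from the gene tables by symbol alone, without regard to letter case or to the suffix given to copies of a symbol, and every gene record of a symbol was kept. This gave 21 of 32264 gene IDs on the zebrafish genome and 12 of 20459 gene IDs on the medaka genome. All 9 symbols were found on the zebrafish genome, mfap4 with 13 records. On the medaka genome 8 were found, mfap4 with 5 records, and mpeg1.1 was not analysed there.

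The tables come from RNA of whole embryos in 7 libraries. Chimeras, called zebraka (strains Cab/AB, n = 3), are medaka blastulae that were given blastomeres of zebrafish at the same stage, and they were raised in the medaka medium ERM. They were set against zebrafish embryos of the strain AB raised in E3 medium (n = 2) and medaka embryos of the strain Cab raised in ERM (n = 2). All were kept at 28 °C, their stage is given only as embryo, and no library of medaka embryos transplanted with medaka cells was analysed here. On the zebrafish genome a chimera shows the transplanted donor cells and on the medaka genome the host tissue. The labels do not state separate clutches or pools for the libraries of a group. The p-values therefore reflect the spread of these libraries alone, and that spread may be technical.

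Myeloid cells are the macrophages, neutrophils and their relatives. In fish embryos the first of them arise from mesoderm, and macrophages then spread through the tissues, where they take up dying cells and, in the brain and retina, become microglia. spi1b encodes PU.1, the transcription factor that starts the myeloid programme, Cebpa directs its granulocyte branch and Irf8 favours macrophages over neutrophils. Some of these genes have other sites of expression: in zebrafish csf1ra is also needed by yellow pigment cells (xanthophores), and cebpa is also active in the liver.

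Values are FPKM (fragments per kilobase of transcript, relative to all mapped fragments of the library) rescaled by the median ratio between libraries, unless said to be as deposited. Fragment numbers were worked out from the confidence limits given with each FPKM value. On the zebrafish genome chimeras held 764000 to 941708 fragments, zebrafish embryos 21866655 to 28574227 and medaka embryos 77794 to 102064. On the medaka genome chimeras held 27167734 to 30983952, medaka embryos 18330408 to 21491640 and zebrafish embryos 63818 to 81765. At the same FPKM a zebrafish gene thus had 33.7-fold fewer fragments in a chimera than in a zebrafish library (median of the chimeras), so weak donor genes could be missed. Cross-mapping between the species hardly touched the myeloid genes. In the libraries of the other species no record held more than 1.0 fragment, and on the zebrafish genome lcp1 was the single record above 0.

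Zebrafish myeloid transcripts were almost unseen in the chimeras. Over the 21 records and 3 chimeras 3.46 fragments were found, where 1084 would have been present at the level of zebrafish embryos. Of the 21 records 17 were listed at 0 in all 3 chimeras, and the other 4 were above 0 in 1 chimera each. Of the 17, 9 were tested, and 12.3% of all tested zebrafish genes were at 0 in all chimeras. The untested ones include weak mfap4 records, with as few as 0.0187 fragments over the 3 chimeras even at the embryo level. A 0 for such a record says nothing about the donor cells. In whole-embryo RNA, fewer cells of a type and less RNA per cell cannot be told apart. An exact 0 can also be a failed estimate. Of 79 ribosomal protein gene records, which every cell uses, 1 was at 0 in any chimera. That number does not cover weaker genes or overlapping copies, and whether failed estimates gave any of the myeloid zeros was not tested.

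**Figure D1:**
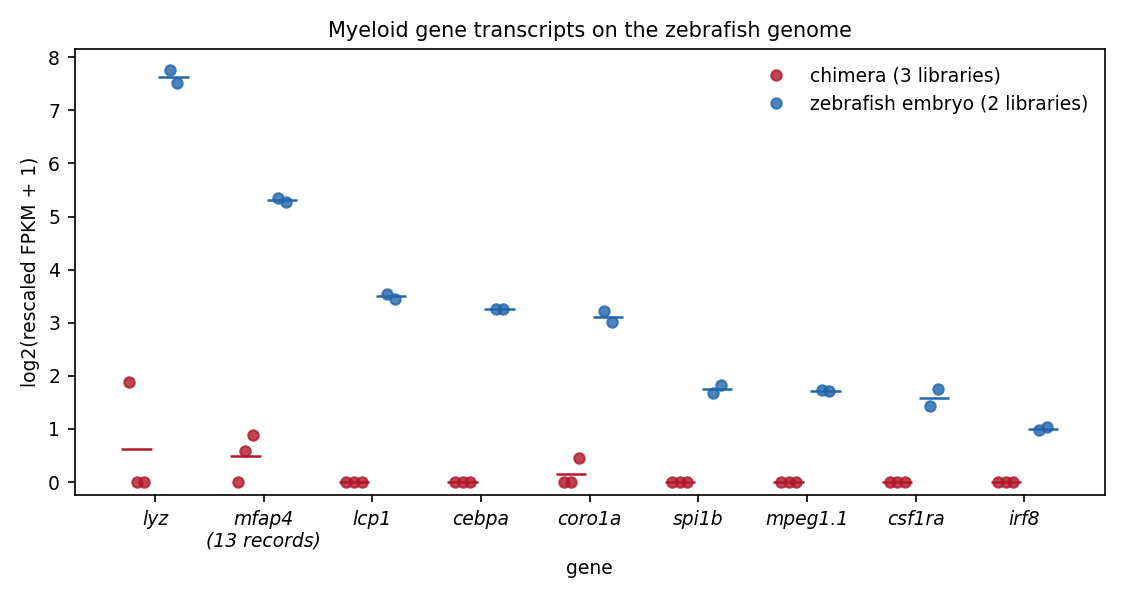
Level of each myeloid gene on the zebrafish genome as log2(rescaled FPKM + 1), with a point for each library, horizontal lines for group means on this scale, chimeras in red and zebrafish embryos in blue; mfap4 is the sum of its 13 records. No chimera overlaps a zebrafish embryo for any of the 9 genes, and only lyz, mfap4 and coro1a are above 0 in a chimera. Over all tested zebrafish genes 43.7% are lower in chimeras without overlap.

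Among the regulators, spi1b (chromosome 7, 32373523 to 32388203; positions on danRer10) was listed at 0 in each chimera, against 2.19 and 2.55 FPKM in zebrafish embryos. cebpa (chromosome 7, 37813728 to 37816607) was also listed at 0 in each chimera, against 8.61 and 8.59 FPKM in zebrafish embryos. irf8 (chromosome 18, 30589691 to 30595595) was listed at 0 in each chimera too, against 0.961 and 1.05 FPKM. The groups did not overlap for any of the 3, while 43.7% of all tested zebrafish genes were lower without overlap (65.6% in either direction). The weight of the 3 genes differs with depth. At the level of zebrafish embryos cebpa would have had 150.3 fragments over the 3 chimeras, spi1b 13.9 and irf8 10.2, so that a count of 0, which allows up to 3 fragments over the group, limits donor cebpa to 2.0% of the embryo level, spi1b to 21.6% and irf8 to 29.4%. These limits cover counting error only. By limma's test over 16593 zebrafish genes the log2(FPKM + 1) differences were -1.75 for spi1b (SE 0.09, adjusted p = 0.000129), -3.26 for cebpa (SE 0.13, adjusted p = 8.87e-05) and -1.003 for irf8 (SE 0.06, adjusted p = 0.000214), with Benjamini-Hochberg adjustment. The 3 genes had no spread among the chimeras, so their SE and p do not measure the counting error of the shallow chimera libraries. The same holds for every other gene listed at 0 in all chimeras. irf8 lay just above the minimum mean of 1 FPKM for testing, with a mean of 1.00 in zebrafish embryos. It dropped below it when zebrafish replicate 2 or any chimera was left out, with quantile normalization and with FPKM as deposited, and then had no test.

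The receptor csf1ra (chromosome 14, 3170816 to 3202049), which binds the macrophage growth factors Csf1 and Il34, was listed at 0 in each chimera, against 1.69 and 2.38 FPKM in zebrafish embryos. It would have had 35.5 fragments at the embryo level, so a count of 0 limits it to 8.45% of that level, and its difference was -1.59 (SE 0.12, adjusted p = 0.000494). Of the 4 xanthophore markers examined, gch2, aox5 and xdh fell, each of them at 0 in every chimera, while pax7a, which neural cells also express, rose. The 3 that fell, and the liver markers given next, had passed the minimum through the zebrafish embryos alone. Over all tested zebrafish genes 32.7% fell, 10.5% rose and 12.3% were at 0 in all chimeras. The 4 xanthophore markers together summed to 10.2 to 12.6 FPKM in chimeras, all of it from pax7a, and to 118 to 150 FPKM in zebrafish embryos. Likewise, beside cebpa, the 4 tested liver markers tfa, serpina1l, cp and hnf4a fell and were at 0 in all chimeras. With fabp10a, which was too low to test, they summed to 0 FPKM in chimeras and 361 to 368 FPKM in zebrafish embryos. What share of the csf1ra and cebpa differences came from those cell types was not tested.

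The effector genes include the most abundant member. lyz (chromosome 24, 23890689 to 23893626), the lysozyme of neutrophils and macrophages, stood at 2.69, 0 and 0 FPKM in the chimeras, against 216 and 181 FPKM in zebrafish embryos. The signal in chimera 1 rested on 2 fragments where 503 would have been present over the 3 chimeras. The measured level was thus 0.398% of the embryo level (exact Poisson 95% interval 0.0482% to 1.44%), with a log2 difference of -7.01 (SE 0.66, adjusted p = 0.000985). mpeg1.1 (chromosome 8, 29700878 to 29704389), a pore-forming protein gene of macrophages, was listed at 0 in each chimera, against 2.31 and 2.27 FPKM in zebrafish embryos. A count of 0 limits it to 10.2% of the embryo level, where it would have had 29.4 fragments, and its difference was -1.72 (SE 0.08, adjusted p = 9.82e-05).

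mfap4, which in zebrafish marks macrophages, has 13 records on chromosome 1 between 58215048 and 58365385, of which 11 overlap another record. Reads of such copies can be split between records, so the sum is the steadier value. It was 0, 0.502 and 0.845 FPKM in the chimeras, against 39.6 and 37.5 FPKM in zebrafish embryos. The chimera values rested on an implied 0.467 fragments, with 159 present at the embryo level. An implied number under 1 is unreliable for such split reads, and by summed FPKM the chimeras stood at 0.01165 of the embryo level. Of the 13 records 5 reached the minimum for testing. The 2 most abundant, at 15.5 ± 0.76 and 12.3 ± 0.366 FPKM in zebrafish embryos (SD, n = 2), were at 0 in all chimeras, with differences of -4.04 (SE 0.14) and -3.74 (SE 0.13). Another tested record, the one above 0 in chimera 3, had a difference of -2.18 (SE 0.32, adjusted p = 0.00536). Leaving out zebrafish replicate 1 (adjusted p = 0.15) or zebrafish replicate 2 (adjusted p = 0.144) ended that call.

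The cytoskeletal genes behaved alike. coro1a (chromosome 3, 30795522 to 30810520), an actin regulator of leukocytes, stood at 0, 0 and 0.371 FPKM in the chimeras, against 8.27 and 7.04 FPKM in zebrafish embryos. The signal in chimera 3 was 1 fragment of 79.35 present at the embryo level, or 1.26% (exact Poisson 95% interval 0.0319% to 7.02%), with a difference of -2.96 (SE 0.21, adjusted p = 0.000355). lcp1 (chromosome 9, 56663226 to 56705090), the actin bundler L-plastin, was listed at 0 in each chimera, against 10.6 and 9.92 FPKM in zebrafish embryos. It was not tested because 0.913 fragment in medaka replicate 2, worth 4.71 FPKM as deposited in so shallow a table, put it over the limit for cross-mapping. Without that filter its difference was -3.50 (adjusted p = 7.69e-05). A count of 0 limits lcp1 to 2.9% of the embryo level.

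**Figure D2:**
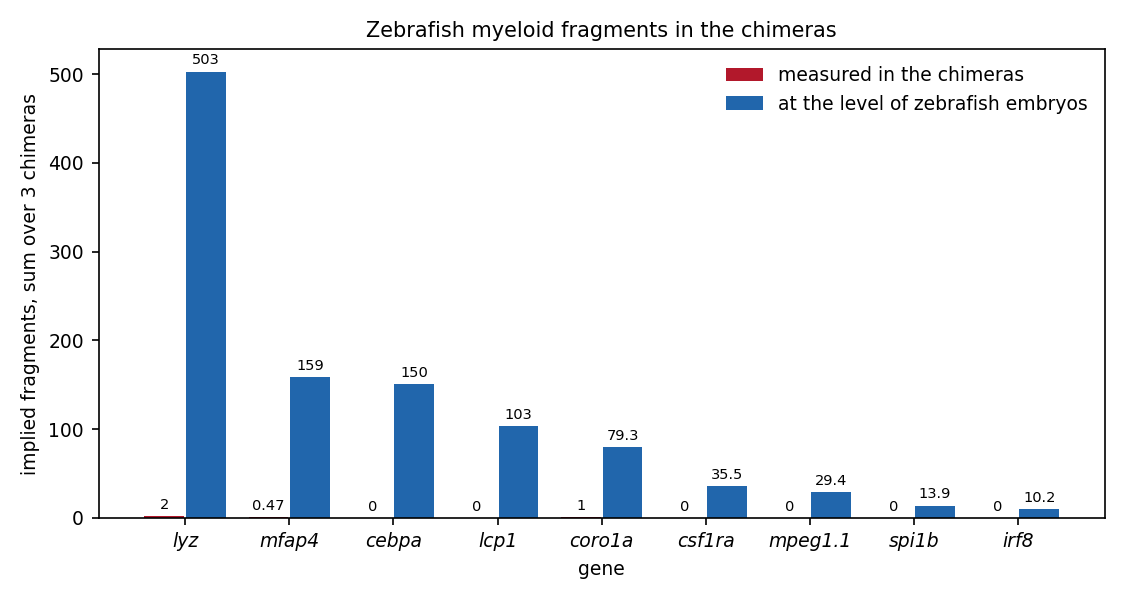
Implied zebrafish fragments of each myeloid gene summed over the 3 chimeras, measured (red) and as they would be at the level of zebrafish embryos (blue), on a linear axis from 0. lyz has 2 fragments measured and 503 at the embryo level, and spi1b and irf8 have the fewest at the embryo level, 13.9 and 10.2.

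Each of the 12 tested myeloid records was called lower in the chimeras, where 32.7% of all tested zebrafish genes were and 43.2% were called in either direction. All 12 were also lower without overlap, against 43.7% of all genes (65.6% in either direction), and 9 of the 12 were at 0 in all chimeras, where 12.3% of all genes were. Every one of them passed the minimum of 1 FPKM through the zebrafish embryos alone, so a count of 12 of 12 is a description and not support. Of the 12, 10 would have held at least 3 fragments per chimera at the embryo level. The other 9 records, lcp1 and 8 of mfap4, were not tested. The median difference of the 12 was -1.96, against -0.24 over all tested genes, of which 1738 rose and 5422 fell. Without zebrafish replicate 1, 619 rose and 3358 fell, and without zebrafish replicate 2, 741 rose and 3361 fell. Quantile normalization moved that overall median to 0.34, with 5426 genes higher and 3440 lower, and the 10 myeloid records tested under it were all still called lower.

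Most of the other tested myeloid and leukocyte genes were called lower as well. Those called had passed the minimum through the zebrafish embryos alone, apart from nccrp1 and arhgdig, so their counts are descriptions too. Over all tested zebrafish genes 32.7% were called lower and 12.3% were at 0 in all chimeras. Of 8 tested regulators, ligands and receptors 7 fell (median -1.92), and the list summed to 3.80 to 5.06 FPKM in chimeras and 47.4 to 52.2 FPKM in zebrafish embryos. Both Csf1 ligand genes, csf1a (2.27 ± 0.00295 FPKM in zebrafish embryos) and csf1b (2.71 ± 0.252), were at 0 in all chimeras. cebpb, a regulator of inflammatory genes, fell to 0, 0.506 and 0.455 FPKM in chimeras on 2 fragments, against 16.1 ± 2.15 FPKM in zebrafish embryos (SD, n = 3 in chimeras and 2 in zebrafish embryos, here and for the donor values that follow). irf5 fell to under 1 fragment over the chimeras. The exception, singled out after its value was seen, was il34, the other ligand of the Csf1 receptor. It held 1.71, 2.56 and 3.46 FPKM in the chimeras on 20 fragments, against 2.14 and 1.59 FPKM in zebrafish embryos, and did not pass the test (difference 0.30, adjusted p = 0.419).

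Of 10 tested neutrophil genes 8 fell (median -2.73), and the list summed to 3.64 to 7.69 FPKM in chimeras and 101.5 to 113.4 FPKM in zebrafish embryos. Beside this and the counts that follow, 32.7% of all tested zebrafish genes fell and 12.3% were at 0 in all chimeras. lect2l (24.1 ± 4.51 FPKM in zebrafish embryos), srgn, a granule proteoglycan gene (13.4 ± 1.79), and mmp13a, a matrix metalloproteinase gene (4.24 ± 0.351), were at 0 in all chimeras. mpx, the neutrophil peroxidase, fell to 0.177, 0 and 0 FPKM in chimeras, against 9.19 and 9.67 FPKM in zebrafish embryos. The other 2, cyba and cybb, subunits of the phagocyte oxidase, did not pass (adjusted p = 0.17 and 0.186). Of 8 macrophage and microglia genes 7 fell (median -1.80), and the cathepsin genes ctss2.1 (37.3 ± 3.93 FPKM in zebrafish embryos) and ctss2.2 (2.81 ± 0.0123), havcr1 (2.33 ± 0.145) and the mannose receptor mrc1a (6.4 ± 1.11) were at 0 in all chimeras. The other, lgmn, a lysosomal protease gene of many cell types, did not pass, at 14.2 ± 3.23 FPKM in chimeras and 22.1 ± 1.61 in zebrafish embryos (adjusted p = 0.062). All 10 tested genes of leukocyte signalling and cytoskeleton fell (median -1.70), and arpc1b (21.6 ± 2.18 FPKM in zebrafish embryos), fcer1gl (7.16 ± 1.32), ikzf1 (1.48 ± 0.0401) and the integrin itgb2 (1.37 ± 0.0377) were at 0 in all chimeras.

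Most tested markers of other blood lineages and of endothelium were called lower too, and the low myeloid level was not shown to be particular to myeloid cells. Of the called markers in this paragraph, those that fell had passed the minimum through the zebrafish embryos alone, apart from tal1, and over all tested genes 32.7% fell and 12.3% were at 0 in all chimeras. All 6 tested erythroid markers fell and were at 0 in all chimeras, among them hbbe3, slc4a1a, alas2 and epb41b. Both tested thrombocyte markers fell (gp9 and gp1bb), and no lymphoid marker was high enough to test. Of 9 endothelial and blood progenitor markers 6 fell, including cdh5, kdrl, tie1 and fli1a. tal1 also fell but was still present, at 2.96 ± 0.749 FPKM in chimeras and 6.77 ± 0.522 in zebrafish embryos. lmo2 (3.19 ± 1.58 against 6.82 ± 1.21 FPKM) and gata2a (5.83 ± 1.06 against 9.26 ± 0.265 FPKM) were lower without passing limma's test (adjusted p = 0.0835 and 0.0522). The 1 that rose, myb, also marks dividing neural progenitors and was picked with its value in view. It stood at 31.0 ± 4.48 FPKM in chimeras and 8.63 ± 0.0774 in zebrafish embryos.

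In the host tissue of the same chimeras myeloid transcripts were plentiful, and most stood near the level of medaka embryos. Over the 12 medaka records the chimeras held 17130 fragments, where 17386 would have been present at the level of medaka embryos. The summed level was 58.3 to 59.1 FPKM in chimeras and 61.9 to 64.9 FPKM in medaka embryos. Of 8 tested records 1 rose, csf1ra, 1 fell, a record of mfap4, and 6 did not pass the test. Over all 13719 tested medaka genes 2.62% rose and 3.14% fell, or 5.77% together. These shares, from 360 and 431 genes, moved when 1 library was left out: 43 genes rose and 77 fell without medaka replicate 1, 70 and 89 without medaka replicate 2, 72 and 96 without chimera replicate 3, and 200 and 384 without chimera replicate 1.

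**Figure D3:**
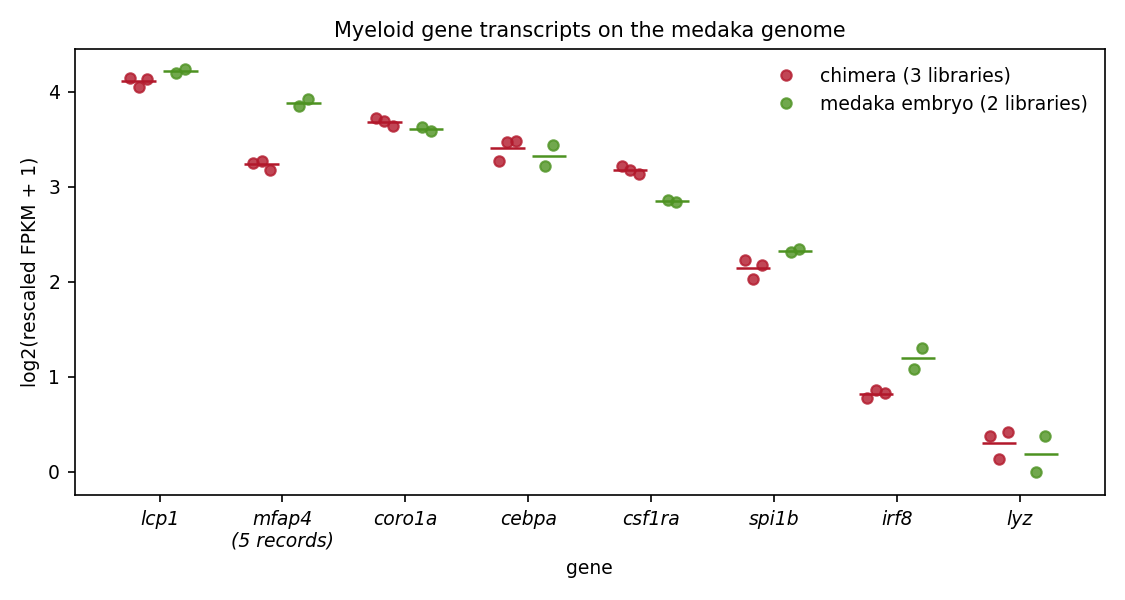
Level of each myeloid gene on the medaka genome as log2(rescaled FPKM + 1), with a point for each library, horizontal lines for group means on this scale, chimeras in red and medaka embryos in green; mfap4 is the sum of its 5 records. Every chimera lies above both medaka embryo libraries for csf1ra and coro1a and below them for mfap4, lcp1, spi1b and irf8, while cebpa and lyz overlap. Over all tested medaka genes 44.4% do not overlap, in either direction.

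Among the host regulators, spi1b stood at 3.69, 3.08 and 3.53 FPKM in chimeras, against 3.96 and 4.09 FPKM in medaka embryos. The groups did not overlap, but the difference of -0.18 (SE 0.08) did not pass limma's test (adjusted p = 0.219). irf8 stood at 0.711, 0.814 and 0.774 FPKM in chimeras, against 1.12 and 1.46 FPKM in medaka embryos, again without overlap. Its difference of -0.37 (SE 0.10) missed the threshold (adjusted p = 0.0789), and irf8 had passed the minimum through the medaka embryos alone. cebpa overlapped, with 8.65, 10.1 and 10.2 FPKM in chimeras and 8.30 and 9.85 FPKM in medaka embryos (0.08, SE 0.10, adjusted p = 0.654). Without overlap were 6 of the 8 tested records, 4 of them lower and 2 higher in chimeras. Over all tested genes 22.5% were lower and 21.9% higher without overlap, or 44.4% together, so such a separation is common in this comparison.

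Host csf1ra rose to 8.28, 8.03 and 7.76 FPKM in chimeras, against 6.29 and 6.19 FPKM in medaka embryos. This was 1.29-fold higher (0.32, SE 0.05, adjusted p = 0.0268) on 4322 fragments in the chimeras. The call was lost without chimera replicate 1 (adjusted p = 0.0742) or chimera replicate 3 (adjusted p = 0.0889). It was also lost without medaka replicate 1 or 2, which leaves 1 medaka library, at differences of 0.33 and 0.31. Over the libraries left out the difference stayed between 0.30 and 0.34. With all 3 groups in a fit the difference was the same 0.32 and was not called (adjusted p = 0.865). That fit adds the zebrafish libraries, which hold only cross-mapped reads on this genome. For csf1ra they had 0 and 1.07 FPKM as deposited, the latter on 1 fragment, and the p takes in their spread. csf1rb, the other receptor copy, had 1.05 ± 0.0541 FPKM in chimeras and 1.57 ± 0.0353 in medaka embryos (SD, n = 3 in chimeras and 2 in medaka embryos, here and for the host values that follow; -0.32, adjusted p = 0.0601). Of the xanthophore markers only pax7a, which neural cells also express, was called. It rose to 12.5 ± 0.435 FPKM in chimeras, against 9.37 ± 0.208 in medaka embryos (adjusted p = 0.0158). gch2 had 33.0 ± 1.13 against 28.6 ± 1.47 FPKM and was not called (adjusted p = 0.0891). With xdh, which was too low to test, the 3 markers found summed to 45.4 to 46.9 FPKM in chimeras and 37.4 to 39.75 FPKM in medaka embryos. Their part in the csf1ra difference was not tested.

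The host mfap4 record on chromosome 1 (26506822 to 26510382; the build of the medaka genome is not given in the sources used here) fell to 0.882, 0.896 and 0.676 FPKM in chimeras, against 5.29 and 7.16 FPKM in medaka embryos. It was thus at 0.131 of the embryo level, on 119 fragments where 881 would have been present (-1.98, SE 0.13, adjusted p = 0.00159), and its adjusted p stayed between 0.000847 and 0.00867 over the libraries left out. It had passed the minimum through the medaka embryos alone. The other tested mfap4 record, on ultracontig222 (544757 to 547982), stood at 7.28, 7.13 and 7.02 FPKM in chimeras, against 7.69 and 6.52 FPKM in medaka embryos (0.01, SE 0.07, adjusted p = 0.948). The other 3 records were under 1 FPKM in both groups. The summed mfap4 level was 8.43 ± 0.320 FPKM in chimeras and 13.8 ± 0.495 in medaka embryos.

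For the cytoskeletal genes, host coro1a stood at 12.2, 11.97 and 11.5 FPKM in chimeras, against 11.4 and 11.0 FPKM in medaka embryos (0.08, SE 0.05, adjusted p = 0.4). lcp1 stood at 16.7, 15.6 and 16.6 FPKM in chimeras, against 17.3 and 17.9 FPKM in medaka embryos (-0.11, SE 0.05, adjusted p = 0.273). Every chimera lay above the medaka embryos for coro1a and below them for lcp1, and neither difference passed the test. lyz was hardly expressed in the medaka tables, with 0.294, 0.0979 and 0.331 FPKM in chimeras on 16.0 fragments, and 0 and 0.297 FPKM in medaka embryos, and it was too low to test.

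Most of the other tested host genes were not called. Beside the counts here and in the next paragraph, 2.62% of all tested medaka genes rose and 3.14% fell. Of 4 tested regulators and receptors 0 passed limma's adjusted test. By limma's unadjusted p 3 were under 0.05, all of them lower in chimeras: csf1rb, given above, cebpd and csf3r. The share of all tested medaka genes under that unadjusted threshold is not given here. This count and the like counts that follow therefore have no background beside them. cebpd stood at 27.3 ± 0.422 FPKM in chimeras and 31.6 ± 1.18 in medaka embryos (adjusted p = 0.0604). csf3r, the granulocyte growth factor receptor, stood at 2.43 ± 0.292 and 3.08 ± 0.0249 (adjusted p = 0.153), and gfi1b was near equal (adjusted p = 0.974). Of 10 neutrophil records 2 fell. mmp9, a matrix metalloproteinase gene induced in inflammation, stood at 0.259, 0.184 and 0.235 FPKM in chimeras, against 6.55 and 5.07 FPKM in medaka embryos, and was 25.7-fold lower (-2.47, adjusted p = 0.000492), having passed the minimum of 1 FPKM through the medaka embryos alone. ncf4, a subunit of the phagocyte oxidase, fell to 7.1 ± 0.161 FPKM in chimeras, against 9.14 ± 0.259 in medaka embryos (adjusted p = 0.0237), while its partners ncf1 (-0.22, adjusted p = 0.109) and cybb (-0.12, adjusted p = 0.25) did not pass. The more abundant record of mpx, chosen after its value was seen, had 45.5 ± 1.16 FPKM in chimeras and 45.2 ± 2.63 in medaka embryos.

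Of 5 tested macrophage and microglia genes 0 passed limma's adjusted test and 2 had an unadjusted p under 0.05. c1qb, a complement gene, was uneven between chimeras, at 2.39, 0.0903 and 1.42 FPKM, against 0.0581 and 0.24 FPKM in medaka embryos (adjusted p = 0.423). Among genes of this list too low to test, c1qc had 1.69, 0.0237 and 1.26 FPKM in chimeras and 0 in both medaka embryo libraries. p2ry12 had 0.424 ± 0.0754 FPKM against 0.173 ± 0.075, without overlap. mpeg1.2 had 0.379 ± 0.304 FPKM against 0.135 ± 0.104, with overlap. lgmn, slc7a7 and cxcr3.2 had adjusted p of 0.0861, 0.125 and 0.493. Of 10 genes of leukocyte signalling and cytoskeleton 1 fell, hck, a Src-family kinase of myeloid cells, to 1.97 ± 0.305 FPKM in chimeras, against 3.97 ± 0.27 in medaka embryos (adjusted p = 0.0161). vav1 (adjusted p = 0.0921), ikzf1 (adjusted p = 0.28) and arhgdig (adjusted p = 0.49) did not pass. The medians were -0.05 for the myeloid members, -0.23, -0.07, 0.11 and -0.11 for the 4 lists in this order, and -0.00112 for all tested genes. Among markers of related cells the erythroid anion exchanger slc4a1a rose to 17.9 ± 0.105 FPKM in chimeras, against 13.2 ± 1.0 in medaka embryos (adjusted p = 0.0164), and klf1 and alas2 did not pass. Of 8 endothelial and blood progenitor markers 0 passed limma's adjusted test and 2 had an unadjusted p under 0.05. Of the 2 tested liver markers, hnf4a (-0.276) and cp (-0.223), 0 passed and 2 had an unadjusted p under 0.05. The others, tfa, serpina1l and fabp10a, were not tested and lay higher in chimeras without overlap. The 5 liver markers summed to 2353 to 2449 FPKM in chimeras and 2031 to 2085 FPKM in medaka embryos.

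**Figure D4:**
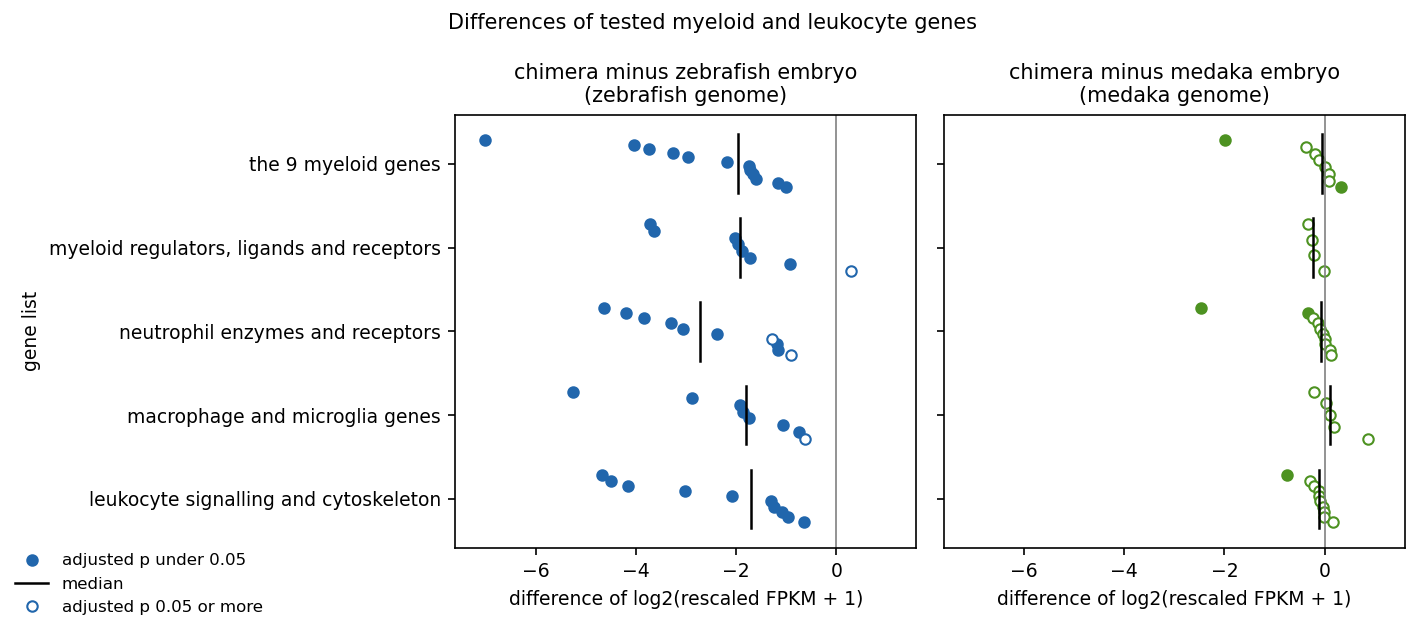
Difference of log2(rescaled FPKM + 1) for each tested record, chimera minus zebrafish embryo on the left and chimera minus medaka embryo on the right; filled points have an adjusted p under 0.05, open points do not, and vertical bars are list medians. On the left the list medians run from -2.73 to -1.70, and on the right from -0.23 to 0.11, with mmp9 at -2.47 and an mfap4 record at -1.98 apart from the rest.

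The difference between the donor change and the host change was tested directly for the 5 members with a single tested record on each genome. In the donor part of the test each of the 5 had passed the minimum of 1 FPKM through the zebrafish embryos alone, so a donor change below the host change was largely set by the filter. That all 5 were called is therefore a description, given beside the 43.5% of 7798 genes called in either direction and the 30.7% called with the donor change below the host change. The donor change lay below the host change for cebpa (-3.34, SE 0.16, adjusted p = 2.61e-07), with -3.26 in the donor and 0.08 in the host. For coro1a the difference was -3.04 (SE 0.22, adjusted p = 3.23e-06), for csf1ra -1.91 (SE 0.16, adjusted p = 1.09e-05) and for spi1b -1.57 (SE 0.14, adjusted p = 1.61e-05). For irf8, with -1.003 in the donor and -0.37 in the host, it was -0.63 (SE 0.12, adjusted p = 0.00237). On this scale a gene listed at 0 in the chimeras falls by its own log2 level in the embryos. The chimera libraries enter the test on both genomes, and a fit with the library as a block also called the 5.

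The order of the levels differed between the species' embryos. The values come from tables scaled apart, so they are set side by side and not tested. In zebrafish embryos the order was lyz (198 ± 24.9 FPKM, SD, n = 2), mfap4 (38.5 ± 1.55, summed), lcp1 (10.3 ± 0.518), cebpa (8.6 ± 0.00895), coro1a (7.66 ± 0.866), spi1b (2.37 ± 0.256), mpeg1.1 (2.29 ± 0.0327), csf1ra (2.03 ± 0.489) and irf8 (1.00 ± 0.0611). The ranges of spi1b, mpeg1.1 and csf1ra overlapped. In medaka embryos lcp1 led (17.6 ± 0.390), followed by mfap4 (13.8 ± 0.495, summed), coro1a (11.2 ± 0.302), cebpa (9.08 ± 1.1), csf1ra (6.24 ± 0.0728), spi1b (4.03 ± 0.0934), irf8 (1.29 ± 0.242) and lyz (0 and 0.297). No neighbours in this order had overlapping ranges. In the host tissue of the chimeras mfap4 came after coro1a and cebpa, and its range of 8.07 to 8.69 overlapped those of cebpa and csf1ra. The symbol lyz thus marked the most abundant member in zebrafish and the least abundant in medaka, and whether the 2 records are counterparts was not tested.

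The genes most like the tested members were those with the smallest distance to the members' mean centred log2(FPKM + 1) profile over the 5 libraries of a comparison. On the zebrafish genome these were foxf1 (distance 0.116), si:ch211-207n23.2 (0.116) and thbs4a (0.119), each at 0 in all chimeras, as were 12.3% of all tested genes. Their differences were -2.66, -2.68 and -2.70, while the median of the tested donor members was -1.96. The mean donor profile includes lyz at -7.01 and 5 records of mfap4. On the medaka genome they were slc7a3a (0.0225), p4ha1b (0.0238) and hmcn1 (0.0257), each called lower, with differences of -0.256, -0.286 and -0.264. The mean host profile includes the mfap4 record at -1.98, while the median of the tested host members was -0.05 and 6 of 8 were not called. The 3 medaka genes thus lie near that mean and not near most host members.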

How the data were processed

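RNA of whole embryos was selected for poly(A), made into NEBNext libraries and sequenced, per the labels' protocols. Reads were aligned with HISAT2 and quantified with Cufflinks 2.2.1, per the submitters' processing notes, with danRer10 as the zebrafish build. Not given in the sources used here are the HISAT2 version, the medaka build and its annotation. The authors deposited 14 tables of FPKM, 1 for each library and genome, with confidence limits and no counts. Reads of a chimera were thus measured on both genomes, and reads of conserved genes can land on the wrong one.

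From these, values of an ID listed at several loci were summed (119 zebrafish and 2 medaka IDs). Libraries of a comparison were rescaled by the median ratio on each genome apart. Implied fragments were taken as the square of 2 × FPKM divided by the upper limit less FPKM, which is too low for genes with several isoforms, and intervals and limits made from them cover counting error only. Fragments at the embryo level are the control level times the depth of each chimera. Genes were tested where the mean FPKM reached 1 in either group, the mean in the other species' libraries was under 1 as deposited, and the status was OK in all libraries. The cross-mapping filter removed 722 zebrafish and 923 medaka genes, and the status 54 and 4. limma 3.58.1 in R 4.3.3, with trended and robust empirical Bayes, was fitted to log2(FPKM + 1), which understates changes of low genes, with Benjamini-Hochberg adjustment over all tested genes and a threshold of 0.05. The interaction of genome and group gave the difference of donor and host change. The procedure was also run on simulated data, and the outcome is not used here. Tables were summarised in Python 3.11.15 with pandas 2.3.3, numpy 2.4.6 and scipy 1.17.1, and drawn with matplotlib 3.10.9.

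The 9 genes and the other lists were chosen with earlier results of these data known. All records of the 9 genes were described. Of each other list up to 4 tested records with the smallest p in a comparison were named. Further list genes were named after their values were seen: those that missed the threshold in lists where most passed, the few that went the other way, and some that were not tested. The alternatives were other pseudocounts, filters and scalings, a fit of all 3 groups, a fragment minimum and each library left out.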

Additional observations from a re-analysis of the deposited data

Results flagged for a closer look

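For 5 myeloid genes the donor change differed from the host change in limma's interaction test: -3.341 for cebpa, -3.037 for coro1a, -1.91 for csf1ra, -1.566 for spi1b and -0.6305 for irf8, on the log2(FPKM + 1) scale. In each of them all 3 chimeras lay below both zebrafish embryo libraries on the zebrafish genome, as they did for 43.7% of all tested zebrafish genes. On the medaka genome all 3 chimeras lay above both medaka embryo libraries for coro1a and csf1ra and below them for spi1b and irf8, and the groups overlapped for cebpa. Over all tested medaka genes 21.9% were higher and 22.5% lower without overlap. All 5 had passed the minimum of 1 FPKM on the zebrafish genome through the zebrafish embryos alone, so a donor change below the host change was largely set by that filter. Over all 7798 genes with a single tested record on each genome 43.5% differed in this test, and 30.7% with the donor change below the host change.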

How the results depend on the processing

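In the comparison of chimeras with zebrafish embryos all 91 values of myeloid records under other settings kept their direction and call, as did 54 of 56 with a library left out; the other 2 belong to an mfap4 record. Records that fell below a minimum had no test and are not in these numbers. They were irf8 under several settings and weak mfap4 records under quantile normalization or the fragment minimum. Records tested only under another setting are not in these numbers either. With no filter on low values 20 myeloid records were tested and 16 were called lower. The uncalled ones were weak mfap4 records (limma's adjusted p = 0.206 to 0.316). Where the minimum applied, the tested myeloid records other than lyz had passed it through the zebrafish embryos alone, so a kept direction was largely set by that filter. The same held for lyz in the main setting, but without chimera replicate 2 or 3 its signal in chimera 1 also lifted the chimera mean over the minimum. Over all genes 9482 were lower with no filter on low values, and quantile normalization gave 5426 higher and 3440 lower. With a library left out 619 to 1873 genes were higher and 3358 to 5548 lower (the lowest without zebrafish replicate 1), and 10 to 11 myeloid records were lower. In the comparison with medaka embryos 247 genes were lower with FPKM as deposited. A fit of all 3 groups also takes in the spread of the zebrafish libraries, which hold only cross-mapped reads on the medaka genome. It gave 976 higher and 994 lower, with 0 myeloid records higher and 2 lower, irf8 passing (adjusted p = 0.0286) and csf1ra not. With a library left out 43 to 483 genes were higher and 77 to 544 lower, and 0 to 1 myeloid records were higher and 1 lower. Host cebpa, uncalled, ranged from -0.0343 (without medaka replicate 1) to 0.19 over the libraries left out, and the mfap4 record on ultracontig222, also uncalled, from -0.0936 (without medaka replicate 2) to 0.113, with -0.0014 without chimera replicate 1. The cause of these shifts was not tested. For the difference of donor and host change 2612 to 3631 genes and 4 to 6 myeloid genes were called with a library left out, and all 30 values of myeloid genes with a library left out and all 14 under other settings kept their direction and call. These numbers leave out irf8 without zebrafish replicate 2 or any chimera and with quantile normalization, where it had no test. They also leave out csf1ra without zebrafish replicate 1, where 1.07 FPKM in zebrafish replicate 2 put it over the limit for cross-mapping. No paired analysis was possible because the labels number the samples through the series and give the groups no shared numbers. The replicate numbers used here only name the libraries of a group. The library as a block links the values of 1 chimera library on both genomes. Depth limits the weak zebrafish genes: irf8 and spi1b could stand at up to 29.4% and 21.6% of the embryo level and still leave no fragment.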
